A study of Mus musculus with 3 samples.

Results

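The genes described here are the folding machinery of the endoplasmic reticulum (ER) and the stress response that controls it, in mouse T-helper 1 (Th1) cells. They were chosen as 40 gene symbols, and each symbol matched exactly 1 of the 50600 genes in the files through the GENCODE mouse annotation. RNA was measured in 3 libraries of 1 group, Th1 primary cells of the strain C57BL/6NJ, numbered in the labels from 1 to 3 as biological replicates. The 3 share 1 donor record, and age and sex are not given. The file headers call the cells sorted and place them at 72 hours, and the labels link a CD4 T-cell differentiation protocol. No genetic change, agent or comparison group is named, so what follows are levels in 1 cell state and differences between genes or libraries. Nothing in the labels says whether the replicates were separate animals or cultures, so their spread may be technical.

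Proteins bound for secretion or for membranes enter the ER through the SEC61 channel, where chaperones fold them and disulfide isomerases join their cysteines. When unfolded protein builds up, 3 sensors act: ATF6 and IRE1 (Ern1), which makes the active form of XBP1 by splicing its RNA, raise chaperones and degradation genes, and PERK (Eif2ak3) phosphorylates the translation factor eIF2 alpha. Phosphorylated eIF2 alpha lowers translation in general but favours ATF4, which amino acid shortage also induces through the kinase GCN2 (Eif2ak4). ATF4 then drives genes of amino acid supply and, with CHOP (Ddit3), of cell death. Cytokine-making T cells use this system to carry their secretory load. These data hold RNA of whole genes and cannot show the spliced form of Xbp1 or the translation of Atf4.

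The 3 libraries held 4482916, 266790 and 3733531 counted fragments in replicates 1, 2 and 3, so replicate 2 was 16.8-fold shallower than replicate 1. Of these, 32968, 1688 and 18315 fell on the 40 members. Levels are given as TPM, in which each gene's fragments are divided by its exon length and then scaled to the same sum in every library. In such bulk RNA, fewer cells that express a gene and less of its RNA per cell cannot be told apart. Genes that share exon bases with a gene on the other strand, called overlapped below, were 16.2% of all genes and held 51.7%, 55.1% and 66.5% of the counts. Of the 40 members, 13 were overlapped and 27 were not. Fragments were counted on 1 strand, and whether it is the strand of the RNA was not tested. Each level here is therefore that of the counted strand, and for overlapped genes it may hold RNA of the gene opposite. If the counted strand is not that of the RNA, the levels of genes with no overlap would not be those of their RNA either. This limit holds for the 27 members with no overlap and for the markers below. All 7 markers of Th1 and T cells reached a mean of 1 TPM, with 174 ± 53.5 TPM for Cd4, 70.5 ± 22.1 for Tbx21 and 604 ± 252 for Ifng (SD, n = 3). Il12rb2 (140 ± 43.7 TPM) and Cd3e (18.3 ± 16.2 TPM) of this list are overlapped, and Cd3e had 1 count in replicate 2. A mean of 1 TPM was also reached by 4 of 6 markers of other CD4 fates, 1 of 2 of CD8 T cells and 2 of 6 of myeloid cells. It was reached too by 3 of 7 of B and plasma cells, the latter being the cells best known for a large ER. Among them Foxp3, the factor of regulatory T cells, had 64.9 ± 2.73 TPM and the myeloid receptor gene Csf1r 111 ± 25.05, both overlapped. Markers with no overlap were present too. The myeloid gene Cd68 had 29, 3 and 22 counts (12.7 ± 5.15 TPM) and Il4 27, 1 and 30 (9.61 ± 2.96 TPM). The CD8 gene Cd8b1 had 14, 0 and 7 counts (2.28 ± 2.26 TPM), while Cd8a and Il17a had 0 in each library. Flt3, Itgam and Lyz2 of the myeloid list had 0 counts in each library. Of the B-cell and plasma-cell genes, Cd79a had 11, 2 and 31 counts (8.23 ± 4.00 TPM) and Sdc1 34, 1 and 22 (3.05 ± 1.13 TPM), while Jchain, Mzb1 and Ms4a1 had 0 in each library. The part of these cells in the members' levels was not tested. For Jchain, 3 counts would equal at most 9.22 TPM in replicate 2 and 0.585 in replicate 3. The summed level of the 7 B-cell and plasma-cell markers was 124 to 189 TPM, and Irf8, which T cells also express, made up 140 ± 36.8 of it.

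Promoters of some members, but not of most, carry the letters through which the stress factors are known to act. The ER stress element (ERSE: CCAAT, any 9 bases, CCACG) is the known site of ATF6 and XBP1, and its shorter form ERSE-II (ATTGG, any base, CCACG) is known from Herpud1. The CARE element (TGATGNAA) is the known site of ATF4 with its C/EBP partners. RefSeq promoter windows of build GRCm38.p6, from 250 bases before to 50 bases after the start, were found for 35 of the 40 members and searched on both strands. An ERSE was present in 8 of the 35 (22.9%) and in 0.119% of all 32851 windows. An ERSE-II was present in 2 of the 35 (5.71%) and in 0.0365% of all windows. A CARE was present in 5 of the 35 (14.3%) and in 3.97% of all windows. The XBP1 element TGACGTGG was in none of the 35 and in 0.676% of all windows. No match of 1 motif lay over a match of another in the members. A match is a description of these letters, not proof of a bound site. No window was found for Sec61a1, Atf6, Ssr2, Hyou1 and Manf.

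The ERSE members were Hspa5, Hsp90b1, Calr, Canx, Pdia6, Dnajc3, Creld2 and Syvn1, and the ERSE-II members were Dnajb11 and Herpud1. None of them belongs to the ATF4 arm, of which all 10 members had a window. The CARE members were Asns, Chac1, Trib3 and Slc7a11, all of the ATF4 arm, and Herpud1, the only member with both kinds of element. The 250 bases before the start are shown for 7 of these genes, with the matches in capitals, since they show both kinds of promoter side by side. The isomerases P4hb, Pdia3 and Pdia4 and the factors Atf4, Ddit3 and Xbp1 had none of these letters in the window. The stretches are chr2:34771840-34772089 on the plus strand, chr10:86705445-86705694 and chr8:84846932-84847181 on the minus strand, chr8:94386179-94386428 and chr2:119350992-119351241 on the plus strand, and chr6:7693210-7693459 and chr3:50443614-50443863 on the minus strand. The first 3 hold ERSE, Herpud1 holds CARE followed by ERSE-II, and the last 3 hold CARE. Every line reads 5′ to 3′ along the gene.
Hspa5: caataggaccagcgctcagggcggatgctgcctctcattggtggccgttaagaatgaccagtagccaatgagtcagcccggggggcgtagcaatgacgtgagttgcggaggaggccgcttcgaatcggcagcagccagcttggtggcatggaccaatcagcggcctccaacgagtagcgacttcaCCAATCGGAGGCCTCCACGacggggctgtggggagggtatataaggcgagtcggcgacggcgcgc
Hsp90b1: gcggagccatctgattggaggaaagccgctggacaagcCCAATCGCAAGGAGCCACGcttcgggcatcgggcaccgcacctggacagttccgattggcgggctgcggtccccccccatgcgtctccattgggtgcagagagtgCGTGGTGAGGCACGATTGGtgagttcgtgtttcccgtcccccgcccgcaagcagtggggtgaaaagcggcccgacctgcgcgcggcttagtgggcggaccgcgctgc
Calr: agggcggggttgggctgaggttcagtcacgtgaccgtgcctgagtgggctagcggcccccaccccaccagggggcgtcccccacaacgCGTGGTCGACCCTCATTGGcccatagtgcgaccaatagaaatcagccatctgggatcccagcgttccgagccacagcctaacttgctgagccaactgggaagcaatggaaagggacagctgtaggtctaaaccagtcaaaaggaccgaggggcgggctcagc
Herpud1: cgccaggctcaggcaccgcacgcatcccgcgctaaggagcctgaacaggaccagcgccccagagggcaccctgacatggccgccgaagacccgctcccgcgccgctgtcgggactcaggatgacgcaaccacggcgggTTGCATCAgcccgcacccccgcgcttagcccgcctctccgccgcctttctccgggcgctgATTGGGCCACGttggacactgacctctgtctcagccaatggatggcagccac
Chac1: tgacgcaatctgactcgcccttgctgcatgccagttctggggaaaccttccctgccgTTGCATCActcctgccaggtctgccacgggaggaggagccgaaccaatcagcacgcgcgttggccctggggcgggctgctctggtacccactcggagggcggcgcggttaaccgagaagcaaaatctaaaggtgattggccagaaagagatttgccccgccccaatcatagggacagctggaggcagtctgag
Asns: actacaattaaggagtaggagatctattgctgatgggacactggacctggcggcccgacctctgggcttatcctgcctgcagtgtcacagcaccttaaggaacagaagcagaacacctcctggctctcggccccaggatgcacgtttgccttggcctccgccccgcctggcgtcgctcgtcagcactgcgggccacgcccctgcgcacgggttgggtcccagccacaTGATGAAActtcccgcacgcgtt
Slc7a11: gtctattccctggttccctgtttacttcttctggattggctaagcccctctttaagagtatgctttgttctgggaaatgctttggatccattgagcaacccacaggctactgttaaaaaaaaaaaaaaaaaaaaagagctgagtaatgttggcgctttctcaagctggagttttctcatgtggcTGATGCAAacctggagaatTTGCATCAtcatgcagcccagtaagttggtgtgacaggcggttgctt

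In these promoters the ERSE of Hspa5 ends 47 bases before the start and that of Calr 144 bases before it, the latter on the opposite strand. Hsp90b1 has 2, one on each strand. Slc7a11 has 2 CARE matches, also on both strands, between 66 and 40 bases before the start. The match of Trib3 lies after the start and is not shown. The starts are those of RefSeq and can differ from those of the genes as counted. As counted, Hspa5 begins at base 34771970, inside the stretch shown and before its ERSE. Hsp90b1, Chac1 and Asns, among others, also reach into their stretches. The 10 members with an ERSE or ERSE-II had mean levels from 13.6 to 563 TPM with a median of 103. The 5 with a CARE had 0.243 to 54.3 TPM with a median of 25.5, and the 21 with none of the 3 motifs had a median of 27.3. These levels are a description, and the 5 members with no window are not among them.

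As a whole, 39 of the 40 members reached a mean of 1 TPM, and 32 reached 10. Among all 21764 protein-coding genes, 47.8% reached a mean of 1 TPM. The member below 1 TPM was Slc7a11. Together the 40 genes took up 4798, 3890 and 2758 TPM in replicates 1, 2 and 3. The 9 ER chaperones took 2949, 2327 and 1628 of these, and the 10 genes of the ATF4 arm 817, 712 and 518. The sums were lowest in replicate 3, the library with the largest share of counts in overlapped genes.

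**Figure D1:**
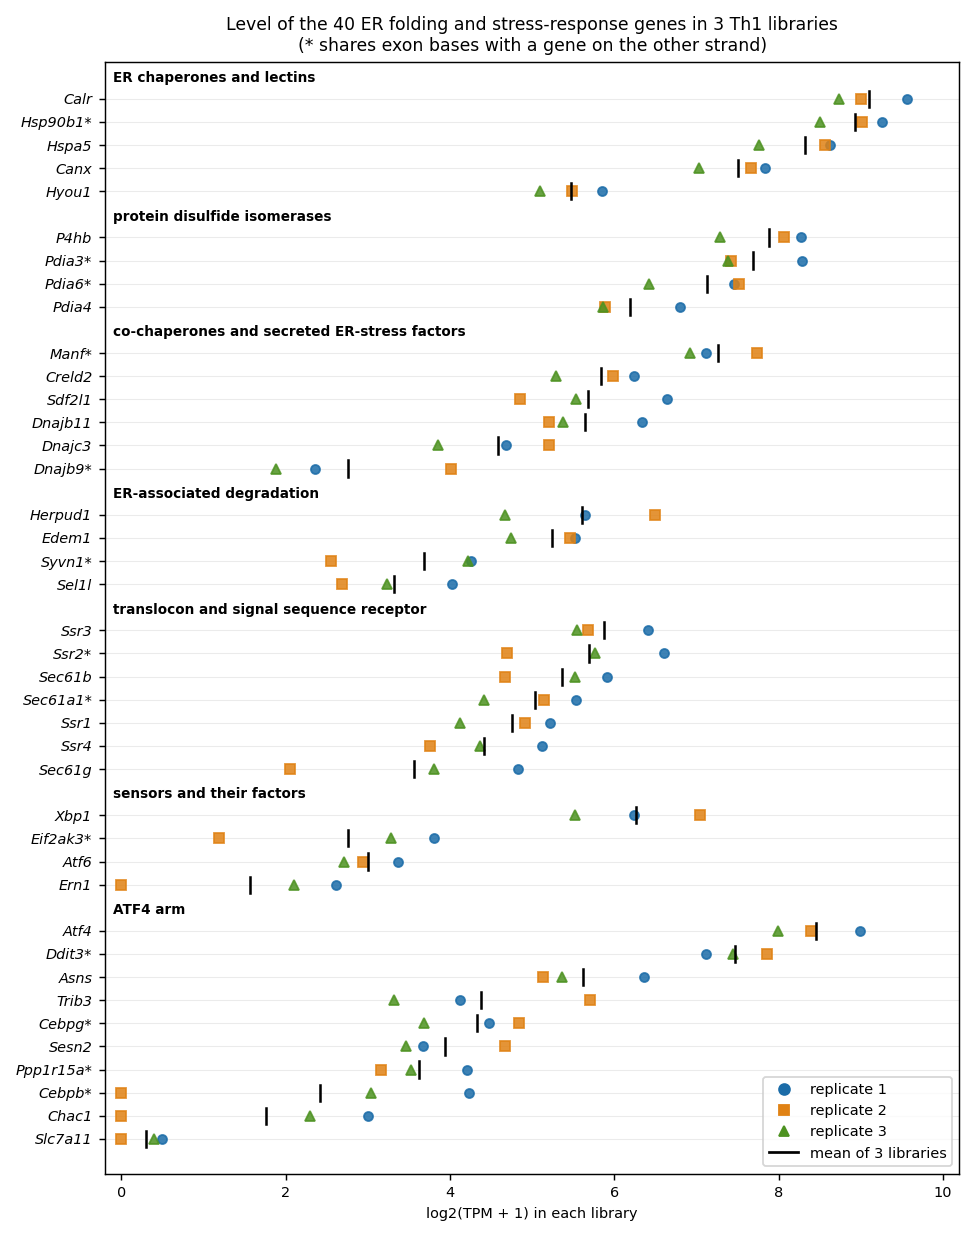
Level of each of the 40 members, as log2(TPM + 1), in replicate 1 (circles), replicate 2 (squares) and replicate 3 (triangles), grouped by role, with the mean as a bar and overlapped genes starred. Chaperones lie at the right, sensors other than Xbp1 at the left, and Ern1, Chac1, Cebpb and Slc7a11 are at 0 in replicate 2.

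The chaperones and lectins came first. Calr, which encodes the calcium-binding lectin calreticulin (chromosome 8, 84841850 to 84846934, minus strand), had 755, 511 and 423 TPM in replicates 1, 2 and 3. Hsp90b1, the ER form of HSP90 known as GRP94, had 613, 516 and 361 TPM and is overlapped. Hspa5 encodes BiP, the HSP70 chaperone that also holds the stress sensors inactive (chromosome 2, 34771970 to 34777547, plus strand), and had 393, 377 and 216 TPM. Replicate 1 was highest and replicate 3 lowest for each of them, with TPM over all genes. With TPM over genes with no overlap alone, replicate 2 was lowest for Calr (1925, 1380 and 1697 TPM). On that scale it was highest for Hspa5 (1002, 1019 and 867 TPM). In every library Calr and Hsp90b1 were above Hspa5, by a mean of 0.78 ± 0.30 and 0.61 ± 0.14 on the log2(TPM + 1) scale (SD, n = 3). Calr was also above the membrane lectin of the same cycle, Canx (228, 201 and 130 TPM), by 1.59 ± 0.21. Hyou1, the exchange factor and holdase GRP170 that serves BiP, was much lower at 56.9, 43.9 and 33.1 TPM.

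Of the disulfide isomerases (Pdia3 and Pdia6 overlapped), P4hb, the classical enzyme PDI, had 308, 268 and 156 TPM. Pdia3, which works with calreticulin and calnexin on glycoproteins, had 310, 170 and 166 TPM. Pdia6, which partners with BiP, had 174, 182 and 85.1 TPM. The ranges of the 3 met across libraries, and P4hb exceeded Pdia3 in only 1 of 3 libraries, by a mean of 0.19 ± 0.41 (log2 scale, SD). Pdia4 was lowest, with 111, 58.1 and 57.3 TPM. It stood below Pdia3 by nearly the same amount in each library, by a mean log2 ratio of -1.51 ± 0.03.

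Each gene was then set against the chaperone level of its own library, the mean log2(TPM + 1) of the 9 chaperones and isomerases, with a chaperone left out of its own reference. This level corresponded to 254, 196 and 138 TPM in replicates 1, 2 and 3. The moderated test of limma was fitted over 11595 genes with a mean count of at least 10, two-sided, with Benjamini-Hochberg adjustment over all of them at 0.05. Of all genes tested, 88.2% were below the chaperone level and 4.2% above it. Of the 39 members tested, 29 were below, 4 above and 6 did not pass. Of the 4 above, 3 belong to the 9 genes that make up the reference. The median difference was -2.22 on the log2 scale over the members tested and -3.66 over all genes tested. Because all genes share the reference of a library, their tests are not independent.

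The 4 genes above the chaperone level were Calr (log2 difference 1.71, SE 0.22; limma, adjusted p = 0.0013), Hsp90b1 (1.52, SE 0.21; limma, adjusted p = 0.0017), Atf4 and Hspa5. Atf4 stood 0.88 above it (SE 0.20; limma, adjusted p = 0.0097) and Hspa5 0.83 (SE 0.21; limma, adjusted p = 0.014), each in 3 of 3 libraries. The calls of Atf4 and Hspa5 were lost without replicate 1 (limma, adjusted p = 0.068 and 0.050) and without replicate 2 (limma, adjusted p = 0.052 and 0.082), where 2 members remained above. When overlapped genes were left out and the rest rescaled, the reference held only the 6 chaperones with no overlap, so it was another level. Against it Atf4 and Hspa5 passed (limma, adjusted p = 0.00061 and 0.0011), and so did P4hb (0.57; limma, adjusted p = 0.0077). With TMM-scaled CPM, which takes no account of gene length, the difference of Atf4 turned to -0.22 and did not pass (limma, adjusted p = 0.27), while Hspa5 passed. The 6 genes that did not pass were P4hb, Pdia3, Pdia6, Canx, Manf and Ddit3. Of these, Pdia6 passed below the chaperone level without replicate 2 (-0.69; limma, adjusted p = 0.048).

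**Figure D2:**
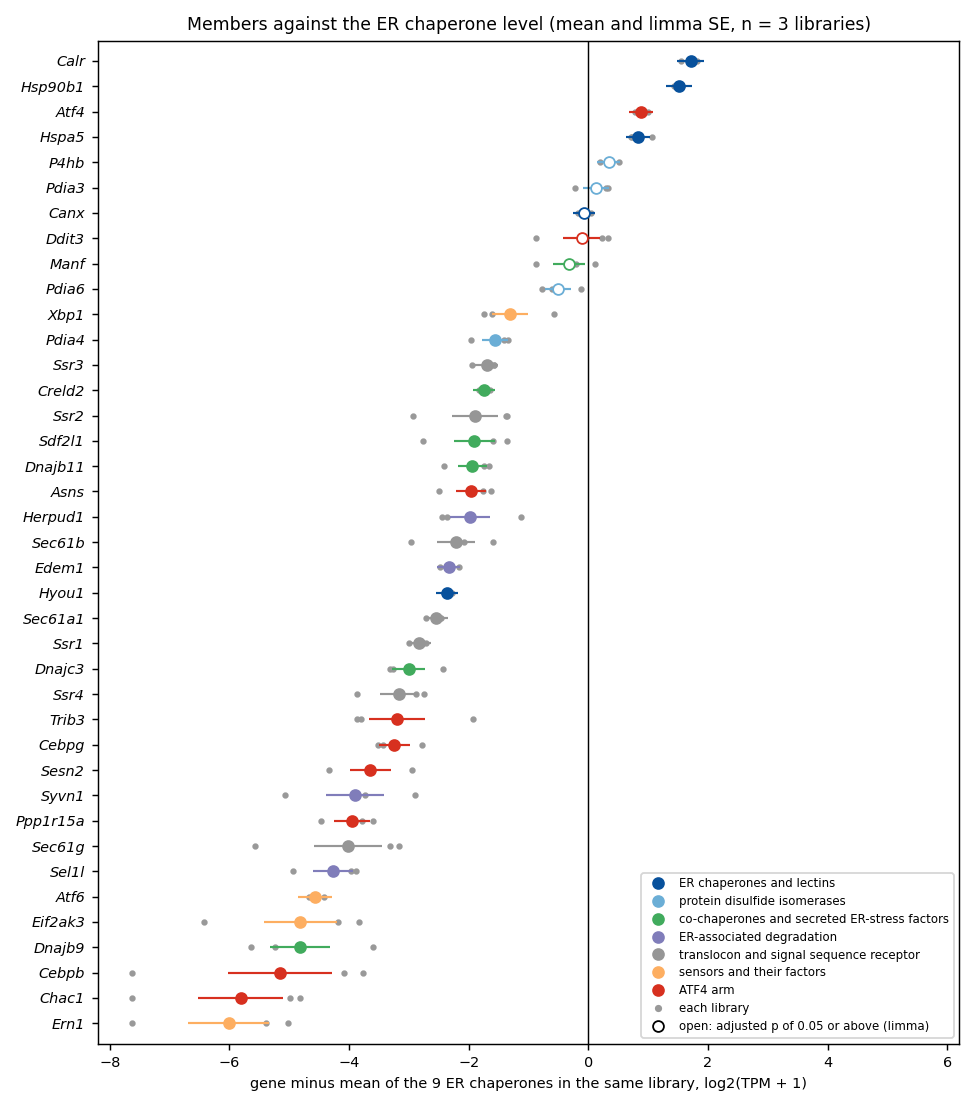
Difference of each of the 39 tested members from the mean of the 9 ER chaperones in the same library, in log2(TPM + 1), with the limma standard error as a line and single libraries as small grey points. Filled points passed the test; 4 lie above 0 (Calr, Hsp90b1, Atf4, Hspa5) and 29 below, with Ern1 and Chac1 lowest.

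The co-chaperones and secreted stress factors were below the chaperone level in 5 of 6 cases, near the 88.2% of all genes tested. The exception was Manf, a secreted survival factor of the ER (137, 213 and 120 TPM; overlapped), which differed by -0.32 (SE 0.26; limma, adjusted p = 0.29). Creld2, a disulfide isomerase-like stress gene, had 74.7, 62.4 and 38.2 TPM. The BiP co-chaperones were Dnajb11 (79.9, 35.9 and 40.5 TPM), Dnajc3, which also inhibits PERK (24.7, 35.8 and 13.4 TPM), and Dnajb9 (4.13, 15.2 and 2.70 TPM; overlapped). Sdf2l1, a partner of Dnajb11, had 98.8, 27.9 and 45.2 TPM. The mean of Dnajb9 was 7.34 TPM and 3.41 without replicate 2, which had 5 counts. The mean of Sdf2l1 was 57.3 TPM and 36.6 without replicate 1. Dnajb9 and Dnajc3 were highest in replicate 2, while Dnajb11 and Sdf2l1 were lowest there, so the group had no common order of libraries.

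All 4 genes of ER-associated degradation, which returns misfolded protein to the proteasome, were below the chaperone level, as were 88.2% of all genes tested. Herpud1, a membrane part of this machinery, had 48.8, 89.6 and 24.4 TPM and was highest in replicate 2. Edem1, which marks glycoproteins for removal, had 44.8, 43.2 and 25.9 TPM. The ubiquitin ligase Syvn1, known as HRD1, had 18.1, 4.87 and 17.7 TPM (overlapped), and its partner Sel1l had 15.2, 5.43 and 8.44. Both were lowest in replicate 2, on 3 and 6 counts. Herpud1 exceeded Syvn1 in every library, by 1.38, 3.95 and 0.44 on the log2 scale.

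The translocon was measured through 3 subunits of the SEC61 channel and the 4 subunits of the translocon-associated protein (TRAP) complex. All 7 were below the chaperone level, where 88.2% of all genes tested lay too. All 7 had their highest TPM in replicate 1, as did 30 of all 40 members. With TPM over genes with no overlap alone, Sec61b was highest in replicate 3 (151, 65.9 and 180 TPM). The channel subunit Sec61a1 had 45.2, 34.5 and 20.3 TPM (overlapped), Sec61b 59.1, 24.4 and 44.8, and Sec61g 27.4, 3.14 and 13.0. Sec61g had a single count in replicate 2, and its mean of 14.5 TPM was 20.2 without that library and 8.05 without replicate 1. Among TRAP subunits, Ssr3 (84.4, 50.1 and 45.6 TPM) and Ssr2 (96.7, 24.9 and 53.2; overlapped) were above Ssr1 (36.3, 29.1 and 16.4) and Ssr4 (33.7, 12.5 and 19.7) in 2 of 3 libraries, replicates 1 and 3. In replicate 2, Ssr1 exceeded Ssr2, which had 6 counts there.

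The sensors were among the lowest members. Atf6 had 9.32, 6.71 and 5.53 TPM. Eif2ak3, which encodes PERK, had 13.0, 1.28 and 8.72 TPM (overlapped), and Ern1, which encodes IRE1, had 5.09, 0 and 3.30. No fragment of Ern1 was counted in replicate 2, where 3 counts would equal 2.84 TPM. The means of Eif2ak3 and Ern1 were 7.67 and 2.80 TPM, and 10.9 and 4.20 without replicate 2. Without replicate 1 the mean of Eif2ak3 was 5.00 and that of Ern1 1.65. The 4 genes of the group, Xbp1 included, were each below the chaperone level, Ern1 by -6.01 (SE 0.68; limma, adjusted p = 0.00077) and by -5.20 without replicate 2. Xbp1, the factor whose RNA IRE1 splices (chromosome 11, 5520659 to 5525893, plus strand), had 74.6, 131 and 44.8 TPM and so stood well apart from the sensors. It exceeded Atf6 by a mean log2 ratio of 3.26 ± 0.73 (SD, n = 3), in 3 of 3 libraries.

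The ATF4 arm was the most uneven group, with means from 0.243 to 365 TPM. Atf4 itself (chromosome 15, 80255184 to 80257540, plus strand) had 506, 337 and 253 TPM, close to Hspa5: their log2 ratio was 0.36, -0.16 and 0.22 in replicates 1, 2 and 3. Ddit3, which encodes the factor CHOP (chromosome 10, 127290774 to 127296288, plus strand; overlapped), had 138, 230 and 173 TPM. It was the 1 member of 40 with its lowest TPM in replicate 1. Its difference from the chaperone level was -0.11 (SE 0.31; limma, adjusted p = 0.75), and -1.22 with TMM-scaled CPM (limma, adjusted p = 0.0070).

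The other 8 genes of the arm were far lower. Asns, which makes asparagine, had 81.5, 34.0 and 40.04 TPM, and stood below Atf4 by a mean log2 ratio of -2.84 ± 0.37. Trib3, a pseudokinase that feeds back on ATF4 and CHOP, had 16.4, 51.0 and 9.01 TPM, with a mean of 25.5 TPM that was 12.7 without replicate 2. Cebpg, a partner of ATF4 (21.3, 27.5 and 11.9 TPM; overlapped by 4 bases), and Sesn2, an inhibitor of mTORC1 (11.7, 24.5 and 10.03 TPM), were likewise highest in replicate 2. Ppp1r15a encodes GADD34, which helps to dephosphorylate eIF2 alpha, and had 17.4, 7.91 and 10.53 TPM (overlapped). These genes and Asns were below the chaperone level, as were Cebpb and Chac1.

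The lowest 3 genes of the arm had no fragment in replicate 2. Cebpb, a C/EBP factor of inflammation (17.8, 0 and 7.18 TPM; overlapped over 20.7% of its exon bases), had a mean of 8.33 TPM, 12.5 without replicate 2 and 3.59 without replicate 1. Chac1, which breaks down glutathione, had 7.01, 0 and 3.90 TPM, and its mean of 3.64 was 5.46 without replicate 2 and 1.95 without replicate 1. In replicate 2, 3 counts would equal 15.4 TPM for Cebpb and 14.2 for Chac1, above the level of Chac1 in both other libraries and of Cebpb in replicate 3, and below the 17.8 TPM of Cebpb in replicate 1. The cystine carrier Slc7a11 had 12, 0 and 9 counts, or 0.412, 0 and 0.317 TPM, and was too low to be tested. Its mean of 0.243 TPM was 0.159 without replicate 1.

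The ATF4 arm and the chaperones were compared by their medians within each library. The median of the 10 ATF4 arm genes was 4.22, 4.75 and 3.50 on the log2(TPM + 1) scale in replicates 1, 2 and 3, and that of the 9 chaperones 8.27, 7.66 and 7.29. The arm was thus lower by -4.06, -2.91 and -3.80, a mean of -3.59 ± 0.60 (SD, n = 3). Of its 9 tested genes, 7 were below the chaperone level, 1 was above (Atf4) and 1 did not pass (Ddit3), beside 88.2% of all genes below. The median difference from the chaperone level was -3.25 over these 9 genes and -3.66 over all genes tested, so the arm's median was near that of all genes. It was -4.70 over the sensors, -3.12 over ER-associated degradation and -2.55 over the translocon. Over the co-chaperones it was -1.92, and over 18 further ATF4 targets, described below, -1.72. Of the 9 chaperones, 3 were above the mean of the other 8, 2 below (Hyou1 and Pdia4) and 4 did not pass. The lower median of the arm went with Atf4 above the chaperone level, Ddit3 not told apart from it, and 8 far below. With TMM-scaled CPM, Atf4 did not pass (-0.22) and Ddit3 passed below the level (-1.22). Against a wider set of 15 chaperones and co-chaperones the difference of medians in TPM was -2.83.

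**Figure D3:**
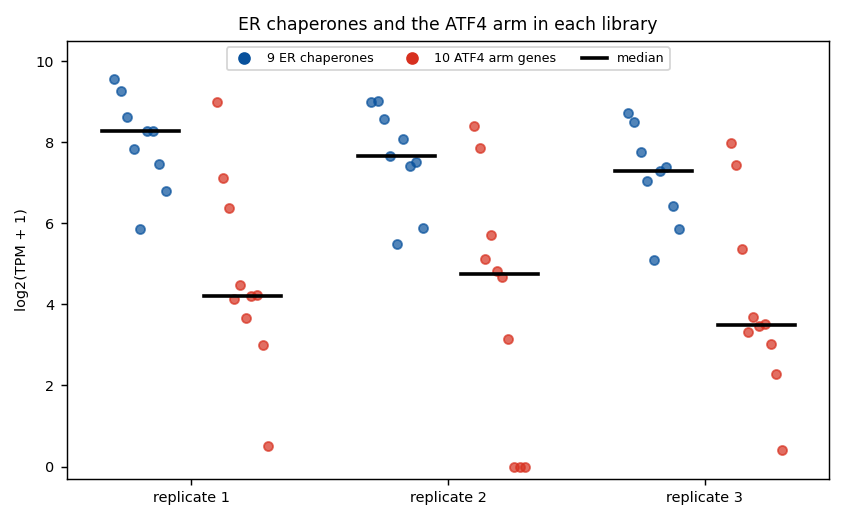
log2(TPM + 1) of the 9 ER chaperones (blue) and the 10 ATF4 arm genes (red) in each library, 1 point per gene, with the median as a bar. In each library the red median is lower, while the upper 2 red points, Atf4 and Ddit3, lie within the range of the chaperones.

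Differences between libraries were tested per gene with a chi-square test on the counts and TMM-scaled library sizes. A gene was called at an adjusted p under 0.05 over all 11595 genes and a ratio of at least 2 between highest and lowest library. This test compares the libraries and holds counting error only. Of the 39 members tested, 13 were called, beside 29.5% of all genes tested. None of the 9 chaperones was among them: all 9 had an unadjusted and an adjusted p under 0.05 by the chi-square test, at ratios from 1.22 (Hsp90b1) to 1.87 (Pdia4). The called genes highest in replicate 2 were Trib3 (ratio 4.17), Dnajb9 (4.15), Herpud1 (2.70) and Xbp1 (2.16). Those highest in replicate 1 were Ssr2 (3.80), Sdf2l1 (3.46), Eif2ak3 (3.31), Sec61g (2.84), Sel1l (2.74), Ssr4 (2.64), Asns (2.35) and Dnajb11 (2.18). Syvn1 (4.94) was highest in replicate 3 on this scale. All 9 called genes that were not highest in replicate 2 were lowest there.

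These calls rested on the shallow replicate 2. Without it, 0 of 40 members were called, beside 1824 of 12257 genes (14.9%), and 20 members had an adjusted p under 0.05 (25 an unadjusted one) at ratios under 2. Without replicate 1, 6 of 37 members were called, near the 18.0% of all genes tested, and without replicate 3, 7 of 39 were, beside 11.8% of all genes. Between replicates 1 and 3 the median ratio was 1.22 over the members and 1.28 over all genes, and the widest among members was 1.88 for Ddit3, higher in replicate 3 (chi-square test, adjusted p = 5.8e-25). On the 27 members with no overlap, with TPM over such genes alone, replicate 3 minus replicate 1 lay between -0.49 (Ssr1) and 0.42 (Sesn2) on the log2 scale, and all 27 were within 1. For replicate 2 minus replicate 1 the range was -4.24 (Chac1) to 1.70 (Trib3), and 15 of 27 were within 1. On that scale 6 of 26 tested members were called over 3 libraries, beside 15.5% of the 6933 genes tested, and replicate 3 was lowest for 10 of 27, whereas on all genes it was lowest for 24 of 40. Counts in replicate 2 were 5 for Dnajb9, 14 for Trib3, 27 for Herpud1 and 55 for Xbp1. Their 95% counting intervals (exact Poisson) were 4.93 to 35.4, 27.9 to 85.6, 59.0 to 130 and 98.7 to 171 TPM. The chi-square approximation is weak at counts as small as that of Dnajb9, and Eif2ak3 and Sec61g had 1 count each in replicate 2.

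**Figure D4:**
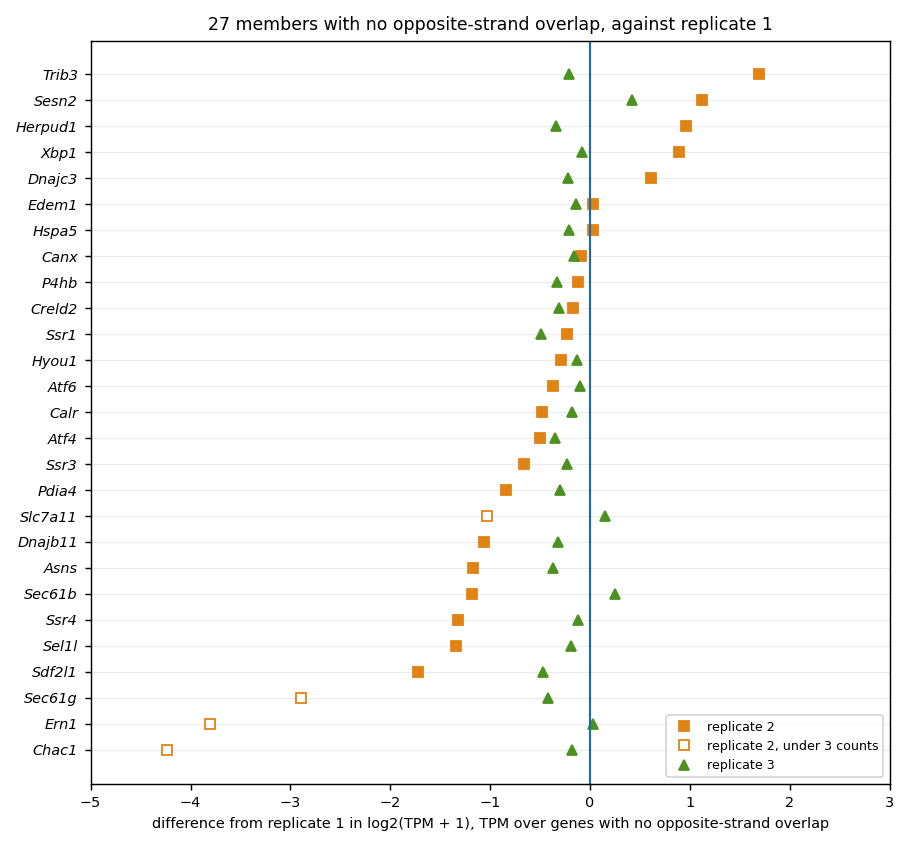
Difference of replicate 2 (squares, open under 3 counts) and replicate 3 (triangles) from replicate 1 for the 27 members with no overlap, in log2(TPM + 1) with TPM over genes with no overlap. Triangles stay between -0.49 and 0.42, while squares range from -4.24 for Chac1 to 1.70 for Trib3.

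The 13 overlapped members shared from 0.0712% (Cebpg) to 20.7% (Cebpb) of their exon bases with genes on the other strand. The gene sharing most bases had a higher mean TPM than the member in 8 of 13 cases, and a higher level in every library in 6. Gm44170, annotated as antisense, lies wholly within the exons of Sec61a1 (chromosome 6, 88503579 to 88518905, minus strand) over 549 bases. It had 3905, 197 and 5189 counts, which is 6.13, 6.57 and 18.7 times those of Sec61a1. The pseudogene 1810014B01Rik shares 415 bases with Hsp90b1 and had 18375, 1357 and 22279 counts, 3.56, 5.04 and 7.51 times those of Hsp90b1. Opposite Eif2ak3, Gm43292 had 380, 37 and 619 counts against 164, 1 and 107. Opposite Cebpb, Tmem189 had 483, 12 and 349 counts against 56, 0 and 22. Ddit3 shares 68 bases with Mars, the methionyl-tRNA synthetase gene, which had 741, 38 and 465 counts against 494, 51 and 602. Of the rest, Pdia3, Pdia6, Ssr2 and Dnajb9 had higher means than their partners.

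The files count fragments on 1 strand, with strand setting 1. In the mitochondrial genome, mt-Nd6, which is encoded on the light strand, had 18316, 1673 and 13631 counts against 10721, 546 and 5027 for mt-Co1 on the other strand. Whether the counted strand is that of the RNA was not tested, so each level above is that of the counted strand, with or without overlap.

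**Figure D5:**
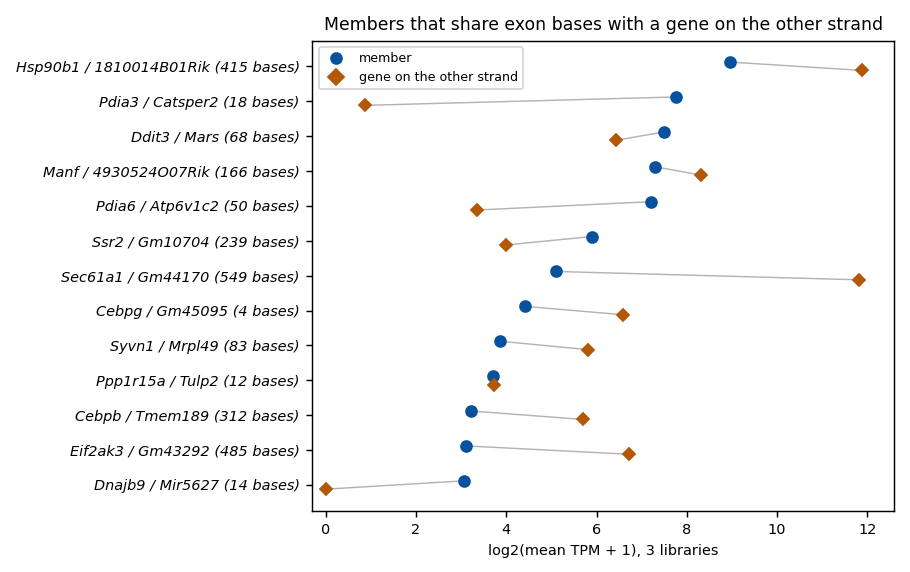
Mean level, as log2(mean TPM + 1) over 3 libraries, of the 13 overlapped members (circles) and of the gene on the other strand with most shared exon bases (diamonds), with the number of shared bases. The gene opposite is higher for 8 of 13, most of all for Sec61a1.

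The rest of the pathway was read from 75 further genes, of which 69 reached 1 TPM. Of the 67 tested, 62 were below the chaperone level, near the share of all genes tested (88.2%), and 5 did not pass, with 0 above it by the limma test at an adjusted or an unadjusted p under 0.05. Between libraries 12 of 67 were called, beside 29.5% of all genes tested. Without replicates 1, 2 and 3 it was 7 of 65, 2 of 67 and 4 of 66, beside 18.0%, 14.9% and 11.8% of all genes. Among other folding enzymes, 14 of 16 tested were below. The highest were Erp29 (overlapped, 231 ± 52.8 TPM), the prolyl isomerases Fkbp2 (135 ± 117) and Ppib (overlapped, 110 ± 40.5), and the lowest was the oxidase Ero1lb (1.26 ± 1.09). Fkbp2 had 88.0, 268 and 48.1 TPM, and its mean was 68.1 without replicate 2. For Ero1lb, with 0 counts in replicate 2, the mean was 1.89 without that library.

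Of other degradation genes all 11 tested were below the chaperone level, beside 88.2% of all genes. They were led by the ATPase Vcp (overlapped, 80.8 ± 33.8 TPM), the lectin Os9 (69.0 ± 21.5) and the ubiquitin-conjugating enzyme Ube2j1 (37.6 ± 16.6), with Derl3 lowest on 3, 0 and 3 counts. All 11 tested genes of translocation and signal peptidase were below as well, led by Srp72 of the signal recognition particle (76.0 ± 19.9 TPM), the peptidase subunit Spcs3 (overlapped, 71.8 ± 25.5) and the receptor Srpr (overlapped, 52.3 ± 12.3), while Srp54a had 0 counts in each library.

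Among other sensors and regulators 9 of 11 tested were below, and among other ATF4 targets 17 of 18, both near the 88.2% of all genes. The highest of the sensors and regulators was Eif2ak1, the eIF2 alpha kinase HRI (overlapped, 178 ± 34.1 TPM), followed by the RNA ligase that joins Xbp1, Rtcb (overlapped, 131 ± 54.3), and Eif2s1, which encodes eIF2 alpha (81.5 ± 24.7). The lowest were Ern2 and Creb3l3, with 0, 0 and 2 counts each. Of the ATF4 targets, the serine and one-carbon enzymes Shmt2 (overlapped, 128 ± 49.5 TPM) and Phgdh (102 ± 21.9) and the factor Atf5 (overlapped, 114 ± 17.2) were highest, and the hormone gene Fgf21 had 0 counts in each library. The median over these 19 ATF4 targets was 54.5 TPM, and that over the 10 members of the ATF4 arm was 17.8.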

How the data were processed

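RNA sequencing of 3 Th1 libraries was deposited as 3 tables, each holding the raw counts of 1 library by gene. Per the file headers, the authors made the counts with featureCounts 1.4.6-p4, by gene over exons of GENCODE mouse release 13, with both ends mapped and strand setting 1. The build was mm10, per the labels. The alignments were named after STAR, per the file headers, and its settings are not given in the sources used here. Counting named no option for fragments with several alignments, so members with near-identical copies may be undercounted.

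Names came from GENCODE mouse release 21 by gene identifier without version, which matched 50376 of 50600 genes. TPM was computed from the deposited counts and exon lengths. The tests were run with R 4.3.3, edgeR 4.0.16 (TMM) and limma 3.58.1 with an intensity trend. The pseudocount was 1, and a floor of 3 counts was set under the lowest library in ratios. Alternatives changed scaling (DESeq2 1.42.0 size factors, library totals, CPM), filter, pseudocount, reference, overlap and replicates. Members, lists and alternatives were chosen with earlier results of these data known. All members may be named, with the gene opposite that shares most bases, and of each further list the 3 highest and the lowest gene. Intervals and floors cover counting error only.

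Both tests were run on simulated counts. Where 100 genes were raised 4-fold in replicate 1, 2 or 3, the chi-square test recovered 99, 86 and 96. Of 100 raised 2-fold it recovered 62, 18 and 65, with 6 to 9 false calls among 11578 to 11585 genes. These simulated counts were Poisson, with the same gene shares in each library apart from the raised genes. They held counting error only, which is what the test assumes, so few false calls were built in. In the real libraries 29.5% of all genes tested were called, so the simulation gives no error rate for the 13 members called. No gene was lowered, so recovery of genes that are lowest in 1 library was not simulated. For the comparison with the chaperone level over 11147 genes, 99 of 99 genes set 4-fold lower and 100 of 100 set 2-fold lower were recovered, and 22 of 300 genes set equal to it were called.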

Additional observations from a re-analysis of the deposited data

How the results depend on the processing

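Detection of members (39 of 40) and of further pathway genes (69 of 75) kept within 1.5 times under each alternative run. With the 27 members without overlap, 26 were detected, and leaving out a replicate gave 39 in each case and 67 to 70 of the 75 further genes. The difference between the ATF4 arm and the chaperones (-3.59) lay between -3.93 and -3.35 when a replicate was left out, and was -2.83 with co-chaperones added to the chaperones, the 1 alternative that moved it by more than the spread between libraries. The count of members different between libraries (13, beside 29.5% of all genes) was 6 on genes with no overlap, beside 15.5%, and 0 to 7 when a replicate was left out, beside 11.8% to 18.0%. Without replicate 2 and without overlapped genes together, an alternative chosen after the data were seen, it was 0, beside 5.15%. The count below the chaperone level (29 of 39, beside 88.2%) fell to 18 of 28 where only genes with mean counts of 100 or more were tested, beside 75.6%, and 27 to 31 when a replicate was left out, beside 85.6% to 90.2%. The count above it (4, beside 4.2%) was 2 to 4 when a replicate was left out, beside 2.59% to 4.77%, and 3 with TMM-scaled CPM, beside 2.27%, where Atf4 did not pass. No paired analysis was possible because the libraries form 1 group. Depth limits replicate 2 most, where 4 members had no fragment.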
